A study of Rattus norvegicus with 46 samples.

Results

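The granins and the enzymes that mature peptide hormones were followed in rat frontal lobe after chlorpyrifos, an organophosphate insecticide whose oxon inhibits acetylcholinesterase. The set holds 10 listed genes: the granins Scg2, Scg3, Chga, Chgb and Vgf, the processing genes Scg5, Pcsk1, Pcsk2 and Cpe, and the secretory protein gene Resp18. Members are the probe sets whose only symbol in the platform table is one of these, and 9 of 15923 probe sets qualified, 1 for each gene except Pcsk1, for which none did. They stand for 9 of the 10411 genes that a probe set names by a single symbol. All 9 passed the filter on dim probe sets that left 11106 for testing.

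Every animal was a male F344 rat of 11 to 12 weeks, dosed once and killed 96 hours later, and each array carries the brain RNA of 1 animal by the numbering of the titles. Experiment A gave 3 usable arrays from vehicle, 3 from 1 mg/kg, 5 from 10 mg/kg and 3 from 50 mg/kg rats. Experiment B gave 4 from vehicle, 3 from 0.5 mg/kg, 1 from 5 mg/kg and 3 from 30 mg/kg rats, and experiment C gave 3 from vehicle, 4 from 1 mg/kg, 3 from 5 mg/kg and 4 from 10 mg/kg rats. A further 7 of the 46 deposited arrays do not share the row order of these 39 and were not analysed here, among them both arrays of 30 mg/kg animals of experiment C. Among the arrays analysed, 0.5 and 30 mg/kg animals come from experiment B alone and 50 mg/kg animals from experiment A alone. The fit shares its dose and experiment terms over all 39 arrays, so the other experiments also enter the values at these doses.

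Granins are acidic proteins packed into dense-core vesicles, where they condense with peptide precursors and are themselves cut into peptides. Prohormone convertases (Pcsk1 and Pcsk2) cleave precursors at paired basic residues, and carboxypeptidase E (Cpe) trims the basic residues that remain. The product of Scg5, called 7B2, is the chaperone and inhibitor of the Pcsk2 convertase. In brain these genes are expressed by many neurons and are abundant in peptide-secreting cells of the hypothalamus and pituitary.

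Transcription of several granin genes is known to respond to cyclic AMP through the element TGACGTCA, so the bases before an annotated start were searched for it. RefSeq promoter windows of build GRCr8, 250 bases before to 50 after the start, matched 8 of the 10 genes (all but Chga and Pcsk1). The element, which reads the same on both strands, occurred in 2 of the 8 windows, those of Scg2 and Vgf, against 1.91% of 27457 windows of the same length. The 5-base core TGACG, searched on both strands and contained in the full element, occurred in 6 of the 8 windows, against 22% of all windows. The site is printed with 11 bases on each side and the element in capitals. That of Scg2 lies at chr9:88256971-88257000 on the minus strand, with the element at bases -123 to -116 from the annotated start, and that of Vgf at chr12:25277092-25277121 on the minus strand, at bases -90 to -83.
Scg2: ggctgagccggTGACGTCAgcgaggaatgc
Vgf: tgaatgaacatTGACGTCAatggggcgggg
Both sites lie inside the annotated span of their gene, chr9:88251531-88257208 for Scg2 and chr12:25274004-25281803 for Vgf. The start used is thus not the outermost one of either gene, and whether it is the start in use in this tissue was not tested. A match of letters is a description of the sequence. The levels of the 2 genes whose windows hold the element had a correlation of -0.08 within groups, with an adjusted permutation p of 0.778 over 36 member pairs.

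Arrays give signal rather than counts. The precision of each comparison depends on the number of arrays per group and on their spread. Array medians before normalization ran from 112.2 to 285.6. The lowest was that of the single 5 mg/kg array of experiment B, and the next lowest was 228.3. Of the cortical excitatory neuron markers 8 of 8 measured passed the dimness filter, and their summed intensity per array ran from 8362 to 20250. Striatal markers summed to between 2984 and 30930 per array. On 4 arrays Oxt, the oxytocin precursor gene of hypothalamic neurons, stood above a log2 level of 11, against 8.83 or less on every other array. In experiment A they are animal 2 at 1 mg/kg and animals 3 and 4 at 50 mg/kg, and in experiment C it is vehicle animal 3. Vehicle animal 3 of experiment B stood apart by pituitary markers, with a log2 level of 13.95 for the growth hormone gene Gh1 and 13.47 for the prolactin gene Prl, against highest values of 10.0 and 7.57 on the other 38 arrays. The ratio of the 3′ to the 5′ beta-actin control, a sign of RNA degradation when high, was 4.72 for 1 mg/kg animal 1 of experiment C and at most 2.15 elsewhere. The Oxt-rich and pituitary-rich arrays are named where they bear on a member, with values without them. The array with the ratio of 4.72 held the highest Scg5 level of all 39 (12.95), and without it the log2 change of Scg5 at 1 mg/kg was -0.02, beside 0.02 with it, neither of which passed.

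The members fell into a variable and a steady set. Within groups, Resp18 had an SD of 0.40 on the log2 scale, Scg2 of 0.34, Vgf of 0.31 and Chga of 0.28, against a median of 0.21 over all probe sets tested (27 degrees of freedom). At the other end Cpe had an SD of 0.07, Scg3 of 0.10, Scg5 of 0.11 and Chgb of 0.16, and Pcsk2 lay between at 0.22. Cpe was steadier than nearly every other probe set, its SD lying at percentile 0.234 of all, while that of Resp18 lay at percentile 92. The steady members were also the brightest, with mean log2 levels of 13.45 for Cpe, 12.63 for Scg5, 11.56 for Scg3 and 11.20 for Chgb. Every other member averaged 10.84 or less. The percentiles take no account of level, and the part of brightness and of quantile normalization in these SDs was not tested. After normalization the log2 level of Cpe stayed within a range of 0.34 over the 39 arrays, whereas Resp18 spanned 1.92 and Scg2 spanned 1.86. The deposited intensity of Cpe ran from 9275.5 to 14209.3, apart from 4378.6 on the 5 mg/kg array of experiment B. The spread of Resp18 and Scg2 was largest in experiment B, at 0.51 and 0.41, and that of Chga and Vgf in experiment C, at 0.36 and 0.39. Without the pituitary-rich animal the values in B were 0.37 for Resp18 and 0.32 for Scg2, and that of Scg2 was then below its 0.36 in experiment C. Because the tissue was bulk, fewer cells of a type and less RNA per cell cannot be told apart in any of these values.

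**Figure D1:**
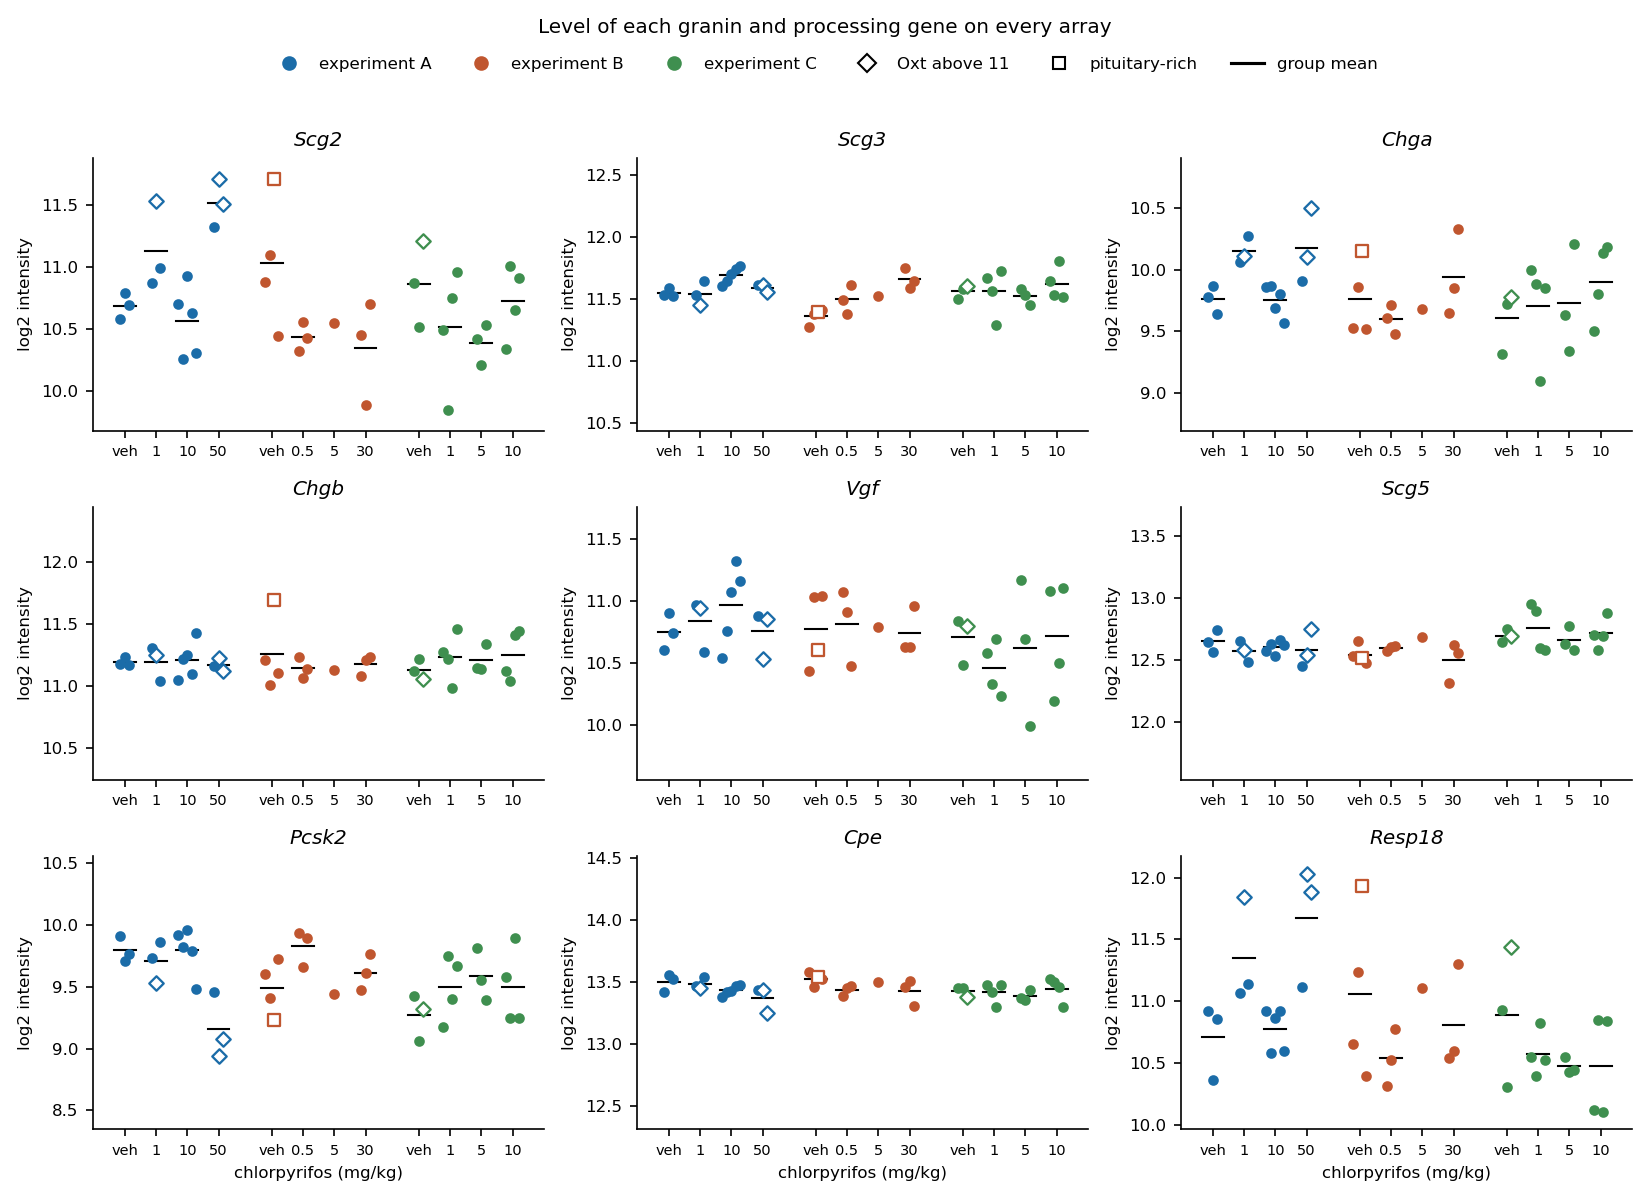
Log2 normalised intensity (vertical axes, each spanning 2.2 log2 units) of the 9 measured members on each of 39 arrays, by experiment and chlorpyrifos dose in mg/kg. Each point is 1 animal, bars are group means, diamonds are the 4 arrays with Oxt above 11 and the square is the pituitary-rich vehicle array of experiment B. Scg3, Scg5 and Cpe lie in narrow bands, while in the panels of Scg2 and Resp18 the diamonds and the square are the highest points of their groups.

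Dosed animals were compared with vehicle animals dose by dose to ask whether any member changed. No member passed an adjusted p of 0.05 at any dose in the limma fit of all 39 arrays, with experiment as a term and Benjamini-Hochberg adjustment over 11106 probe sets. The background was equally low: 0% of probe sets passed at 0.5, 1, 5, 10 and 30 mg/kg, and 0.018% (2 probe sets) at 50 mg/kg. By an unadjusted p under 0.05, 4 of the 9 members were called at 50 mg/kg, against 8% of all probe sets. The count was 2 of 9 at 0.5 mg/kg against 7.63%, 0 of 9 at 1 mg/kg against 2.53%, 0 of 9 at 5 mg/kg against 2.5%, 1 of 9 at 10 mg/kg against 2.67% and 2 of 9 at 30 mg/kg against 9.27%. A moderated F test over all 6 doses gave 4 of 9 members at an unadjusted p under 0.05, against 6.19% of all. They were Scg2, Scg3, Pcsk2 and Resp18. By adjusted p it gave none, where 0% of all passed. The members were chosen with earlier results of these data known, and Scg2 and Resp18 varied together within groups. Their counts here and below, set beside the share of all probe sets, are thus descriptions and not evidence of enrichment. The median change of the 9 members stayed within 0.084 of 0 on the log2 scale at every dose, beside medians of all probe sets between -0.00514 and 0.00617. The p-values set each change against the spread between these animals, with variances moderated over all probe sets tested. Differences in tissue content between arrays are part of that spread.

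**Figure D2:**
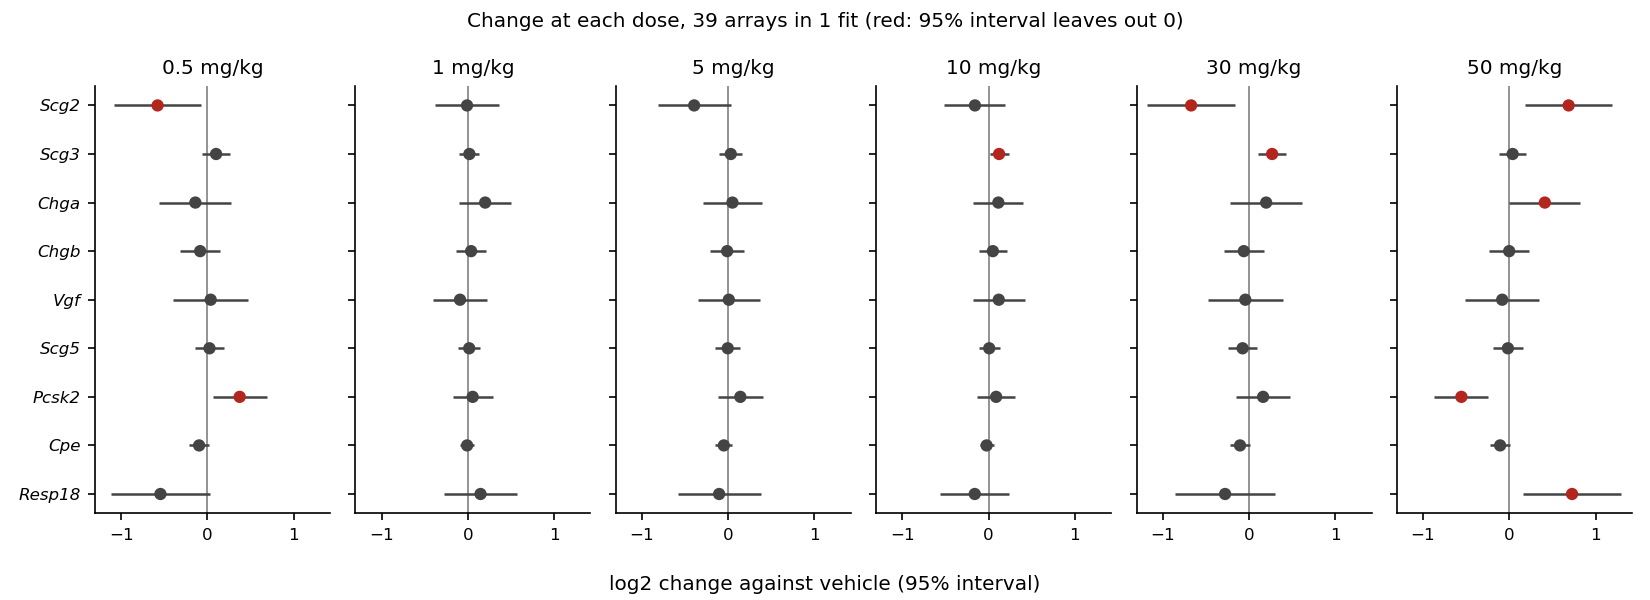
Log2 change against vehicle (horizontal axes) with its 95% interval for the 9 measured members at each of 6 doses, from 1 fit of 39 arrays. Red points have an interval that leaves out 0: Scg2 is lower at 0.5 and 30 mg/kg and higher at 50 mg/kg, Pcsk2 is higher at 0.5 and lower at 50 mg/kg, Scg3 is higher at 10 and 30 mg/kg, and Chga and Resp18 are higher at 50 mg/kg.

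The highest dose, 50 mg/kg in experiment A, had the most members with separated values. In 4 of the 9 members the 50 mg/kg and vehicle animals of experiment A did not overlap, against 17.3% of all probe sets. Scg2, the secretogranin II gene whose protein is the precursor of secretoneurin, had log2 levels of 11.32, 11.71 and 11.51 in the 50 mg/kg animals, against 10.58, 10.79 and 10.69 in the vehicle animals of the same experiment. Every 50 mg/kg animal lay above every vehicle animal by more than 0.5 log2 units. The group means were 11.51 ± 0.20 at 50 mg/kg and 10.69 ± 0.10 in vehicle (SD, n = 3 each). The fitted log2 change was 0.69 ± 0.25 (SE), a fold of 1.61 with an adjusted p of 0.435. Fitted on the 14 arrays of experiment A alone it was 0.82 with an adjusted p of 0.0483, the 1 setting of 55 in which this change passed. The F test over doses also passed for Scg2 in that fit, with an adjusted p of 0.0498. Over all probe sets, 95 passed at 50 mg/kg and 39 over doses in the same fit. The highest Scg2 values at 50 mg/kg, 11.71 and 11.51, came from animals 3 and 4, which had high Oxt.

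Resp18, a neuroendocrine gene first found in rat pituitary cells, behaved like Scg2 in its direction. Its log2 levels were 11.12, 12.03 and 11.88 in the 50 mg/kg animals of experiment A, against 10.92, 10.37 and 10.86 in vehicle animals. The groups did not overlap, although animal 2 at 50 mg/kg stood close to the highest vehicle animal, and the 2 highest values came from the animals with high Oxt. The fitted log2 change was 0.73 ± 0.28 (SE), a fold of 1.66 with an adjusted p of 0.475, and 0.96 with an adjusted p of 0.0748 on experiment A alone.

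Chga, the chromogranin A gene, had log2 levels of 9.91, 10.10 and 10.50 at 50 mg/kg, against 9.78, 9.87 and 9.64 in vehicle animals of experiment A. The groups did not overlap, but their nearest animals, at 9.91 and 9.87, were close. The fitted change was 0.41 ± 0.20 with an unadjusted p of 0.0498 and an adjusted p of 0.623. Without animal 4 at 50 mg/kg the change was 0.25, a difference of more than 1.5 times.

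Pcsk2, the convertase that works with 7B2, was the member with the smallest p at 50 mg/kg, and its direction was down. Its log2 levels were 9.46, 8.94 and 9.08 at 50 mg/kg, against 9.91, 9.71 and 9.76 in vehicle animals of experiment A. All 3 dosed animals lay below all 3 vehicle animals. The fitted log2 change was -0.56 ± 0.15 (SE), a fold of 0.681 with an unadjusted p of 0.000938 and an adjusted p of 0.226. Left without experiment C, the fit gave -0.63 with an adjusted p of 0.0495, the 1 setting of 55 in which it passed. Over all probe sets, 66 passed at 50 mg/kg in that setting. The lowest Pcsk2 values, 8.94 and 9.08, came from animals 3 and 4, which had high Oxt.

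The remaining members at 50 mg/kg had small values. Cpe, the carboxypeptidase, had a fitted log2 change of -0.11 ± 0.06 with an adjusted p of 0.677, from levels of 13.44, 13.44 and 13.25 at 50 mg/kg and 13.42, 13.56 and 13.53 in vehicle animals, which overlap. The log2 changes of Scg3, Scg5, Chgb and Vgf lay between -0.08 and 0.04, with adjusted p from 0.951 to 0.999. Vgf is the gene of a growth-factor-induced granin whose searched window, like that of Scg2, holds the cyclic AMP element. Its 95% interval of -0.51 to 0.35 leaves room for changes in either direction. For Scg5 the interval was -0.19 to 0.15.

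Markers of some other regions and cell types moved with the 50 mg/kg group. Oxt had log2 levels of 7.97, 11.64 and 12.21 in the 50 mg/kg animals, against 8.72, 5.62 and 6.26 in vehicle animals of experiment A, and Avp, the vasopressin gene, had 8.87, 12.41 and 12.76 against 9.34, 7.11 and 6.66. Their fitted log2 changes were 3.33 ± 1.08 for Oxt and 3.20 ± 0.90 for Avp, with adjusted p of 0.345 and 0.226. The summed intensity of the 9 measured hypothalamus markers ran from 1676 to 15070 at 50 mg/kg, against 990.7 to 1722 in vehicle, and none was at 0. Of the 5 that passed the dimness filter, 4 had a fitted change above 0 and 1 below. The 8 cortical excitatory neuron markers summed to between 8362 and 13420 at 50 mg/kg, against 16040 to 19770 in vehicle. Astrocyte markers summed to between 39270 and 42410 at 50 mg/kg, against 33960 to 36920 in vehicle, without overlap. Their median log2 change was 0.15, with 6 of 8 higher and 2 lower. Striatal markers overlapped, at 9182 to 19810 against 4038 to 16590, but the fitted change was above 0 in 8 of 8, with a median of 0.73. Pituitary markers overlapped too, at 734.1 to 2041 against 785.3 to 943.7. So did the sums of general neuron, oligodendrocyte, microglia, endothelium, choroid plexus and blood markers. With the striatal marker level as a covariate the log2 change at 50 mg/kg was 0.69 for Scg2, 0.70 for Resp18, 0.44 for Chga and -0.55 for Pcsk2. The part of astrocyte and cortical markers in the members' values was not tested.

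The members' values without the Oxt-rich arrays rest on animal 2 alone at 50 mg/kg. Left without those 4 arrays, the log2 change at 50 mg/kg was 0.60 for Scg2, 0.32 for Resp18, 0.18 for Chga and -0.28 for Pcsk2, with unadjusted p of 0.0981, 0.375, 0.569 and 0.232. Fitted on all 39 arrays beside a covariate for the Oxt and Avp level, it was 0.27 for Scg2, 0.16 for Resp18, 0.33 for Chga and -0.45 for Pcsk2, with unadjusted p of 0.299, 0.557, 0.171 and 0.0153. All 4 members thus kept their direction in both settings, but the values of Resp18, Chga and Pcsk2 moved by more than 1.5 times without the Oxt-rich arrays, and those of Scg2 and Resp18 with the covariate. Animal 2 had an Oxt level within the range of the vehicle animals. Its levels were 11.32 for Scg2, 11.12 for Resp18, 9.91 for Chga and 9.46 for Pcsk2, each beyond all 3 vehicle animals. The lack of overlap given above for these 4 members already implies this, so it adds no further evidence. Other markers of animal 2 were not like those of vehicle animals. The mean pituitary marker level, centred over all arrays, was 0.82, against -0.39 to 0.04 in vehicle. That of cortical markers was -0.24, against 0.09 to 0.42 in vehicle.

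**Figure D3:**
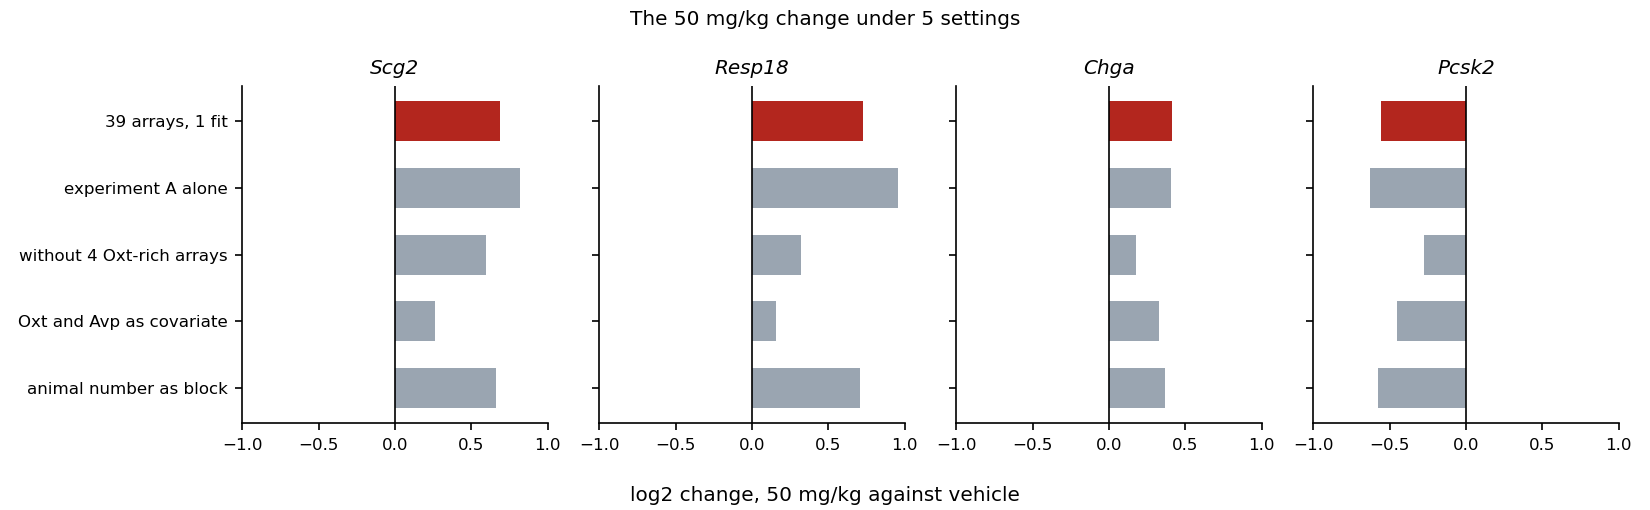
Log2 change at 50 mg/kg against vehicle (horizontal axes) of Scg2, Resp18, Chga and Pcsk2 under 5 settings, with the value from all 39 arrays in red. Bars keep their side of 0 in all 5, and those of Resp18 and Scg2 are shortest with the Oxt and Avp level as a covariate, at 0.16 and 0.27.

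At 30 mg/kg, analysed in experiment B, Scg3 was the clearest member. Scg3 encodes secretogranin III, which anchors other granins to the cholesterol-rich vesicle membrane. Its log2 levels were 11.75, 11.59 and 11.64 at 30 mg/kg, against 11.27, 11.38, 11.39 and 11.41 in vehicle animals of experiment B. The groups did not overlap, which held for 1 of the 9 members, against 10.8% of all probe sets. The fitted log2 change was 0.27 ± 0.08 (SE), a fold of 1.21 with an unadjusted p of 0.0016 and an adjusted p of 0.24, and the adjusted p was 0.0561 without experiment C. The beta-actin ratio of experiment B was 1.32 to 1.56 at 30 mg/kg, against 1.66 to 2.15 in vehicle, and with that ratio as a covariate the change was 0.29 with an unadjusted p of 0.00107. Striatal markers had lower fitted levels at 30 mg/kg in 8 of 8, with a median log2 change of -0.89, and with their level as a covariate the change of Scg3 was 0.24 with an unadjusted p of 0.00463. The 30 mg/kg value also rests on vehicle animals that were low for Scg3, since vehicle means were 11.37 ± 0.06 in experiment B (n = 4), 11.55 ± 0.04 in A and 11.56 ± 0.05 in C (SD, n = 3 each).

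Scg2 was lower at 30 mg/kg, opposite to its direction at 50 mg/kg. Its log2 levels were 10.45, 9.89 and 10.70 at 30 mg/kg, against 10.88, 11.10, 11.71 and 10.44 in vehicle animals. The groups overlapped through vehicle animal 4, and the highest vehicle value was that of the pituitary-rich animal 3. The fitted log2 change was -0.67 ± 0.25 with an adjusted p of 0.397, and -0.48 with an unadjusted p of 0.0597 without vehicle animal 3. Left without animal 3 of the 30 mg/kg group, the lowest of the dosed animals, it was -0.44. The beta-actin and striatal marker differences given above for 30 mg/kg hold for these animals too. In 55 alternatives, which include both covariates, the change of Scg2 kept its direction and did not pass.

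At 0.5 mg/kg Scg2 and Pcsk2 were the 2 members called by unadjusted p. Scg2 had log2 levels of 10.32, 10.56 and 10.43 at 0.5 mg/kg, against the 4 vehicle values just given, of which animal 4 at 10.44 lay inside the dosed range. The fitted change of Scg2 was -0.58 ± 0.25 with an adjusted p of 0.6, and -0.39 without the pituitary-rich vehicle animal. Pcsk2 had log2 levels of 9.93, 9.66 and 9.89 at 0.5 mg/kg, against 9.60, 9.41, 9.23 and 9.72 in vehicle animals, with vehicle animal 4 inside the dosed range. Its fitted change was 0.37 ± 0.16 with an adjusted p of 0.6, and 0.31 with an unadjusted p of 0.0622 without vehicle animal 3. The beta-actin ratio was 1.34 to 1.61 at 0.5 mg/kg, against 1.66 to 2.15 in vehicle. Striatal markers were lower in 8 of 8 (median log2 change -0.73) and cortical markers higher in 8 of 8 (0.34). In 55 alternatives, which include the beta-actin and striatal covariates, Scg2 and Pcsk2 kept their direction and did not pass.

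The pituitary-rich vehicle array was the highest of its group for 4 members. In vehicle animals of experiment B, Chgb, the chromogranin B gene, had log2 levels of 11.21, 11.01, 11.70 and 11.11, Resp18 of 10.66, 11.24, 11.93 and 10.40, and Chga of 9.53, 9.86, 10.15 and 9.52, in animal order. The third value of each is the pituitary-rich animal, as it is for Scg2. Its Pcsk2 value, 9.23, was the lowest of the group, and its Vgf value, 10.60, lay within the others. Left without it, the log2 change of Chgb was 0.04 at 0.5 mg/kg and 0.07 at 30 mg/kg, beside -0.08 and -0.06 with it, so that both signs turned in values whose interval held 0. Resp18 at 30 mg/kg was -0.05 without it and -0.28 with it, and Resp18 at 0.5 mg/kg was -0.32 without it and -0.54 with it.

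At the doses held by more than 1 experiment no member passed by adjusted p. At 10 mg/kg, Scg3 had log2 levels of 11.60, 11.64, 11.70, 11.74 and 11.76 in experiment A, against 11.53, 11.59 and 11.52 in its vehicle animals, with no overlap, where 3.74% of all probe sets had none. In experiment C its 10 mg/kg levels of 11.64, 11.53, 11.80 and 11.51 overlapped the vehicle levels of 11.50, 11.58 and 11.60. The fitted log2 change of Scg3 at 10 mg/kg was 0.12 ± 0.05 with an unadjusted p of 0.0312 and an adjusted p of 0.999. At 5 mg/kg the largest value was that of Scg2, at -0.39 ± 0.21 with an unadjusted p of 0.0671. It includes the single 5 mg/kg array of experiment B, which had the lowest array median, 112.2. Leaving out any 1 array gave values from -0.45 to -0.31.

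At 1 mg/kg experiments A and C pointed apart for Scg2 and Resp18. Scg2 had log2 levels of 10.87, 11.53 and 10.99 at 1 mg/kg in experiment A, all above the vehicle levels of 10.58, 10.79 and 10.69, and in experiment C levels of 10.49, 9.85, 10.75 and 10.96, which overlapped the vehicle levels of 10.87, 10.52 and 11.21. Resp18 had 11.07, 11.84 and 11.14 at 1 mg/kg against 10.92, 10.37 and 10.86 in vehicle animals of experiment A, and 10.55, 10.40, 10.83 and 10.53 against 10.93, 10.31 and 11.44 in experiment C. Together with Chga, they were the 3 of 9 members whose 1 mg/kg and vehicle animals did not overlap in experiment A, against 10.6% of all probe sets. The effect in experiment A minus that in C was 0.80 ± 0.36 for Scg2 and 0.95 ± 0.41 for Resp18, with unadjusted p of 0.0324 and 0.0285 and adjusted p of 0.648 for both, where 2 of 9 members passed an unadjusted p of 0.05, against 7.34% of all probe sets. By adjusted p, 0% of all passed for the 1 mg/kg and for the 10 mg/kg difference. The high-Oxt arrays, 1 mg/kg animal 2 in experiment A and vehicle animal 3 in experiment C, both add to this difference. Without the 4 Oxt-rich arrays it was 0.43 for Scg2 and 0.43 for Resp18, with unadjusted p of 0.288 and 0.31.

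A second fit asked for a change that grows with dose, per unit of log2(dose + 1). By unadjusted p it called 2 of 9 members, Scg3 and Cpe, against 7.67% of all probe sets, and by adjusted p it called none of the members and 0% of all. The slope of Scg3 was 0.03 ± 0.01 with an unadjusted p of 0.00458 and an adjusted p of 0.368. The slope of Cpe was -0.01 ± 0.01 with an unadjusted p of 0.0329 and an adjusted p of 0.593. Scg3 at 50 mg/kg itself was close to vehicle, with levels of 11.61, 11.61 and 11.55 against 11.53, 11.59 and 11.52.

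Vehicle animals of the 3 experiments were compared to size the differences that arise with no chlorpyrifos. An unadjusted p under 0.05 was reached by 2 of 9 members, Scg3 and Pcsk2, against 22.6% of all probe sets. By adjusted p none of the members passed, against 7.75% (861 probe sets) of all. Pcsk2 averaged 9.79 ± 0.10 in experiment A (n = 3), 9.49 ± 0.22 in B (n = 4) and 9.27 ± 0.19 in C (SD, n = 3), with an adjusted p of 0.113, and 0.0434 with array weights. Mean Pcsk2 thus stood nearly as far apart between vehicle animals of A and C as between 50 mg/kg and vehicle animals in the fit.

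The members did not vary together as a set. After the mean of each experiment and dose was subtracted, Pearson's r over 38 arrays was above 0 in 16 of 36 member pairs, with a median of -0.01 and a range from -0.43 to 0.76. The 1 pair that passed was Scg2 with Resp18, at r = 0.76 and Spearman's rho = 0.74, each with a permutation p of 1e-05, the smallest that 100000 permutations within groups can give, and an adjusted p of 0.00036 over the 36 pairs. Their r was 0.67 in experiment A, 0.88 in B and 0.70 in C. It was 0.75 without the 2 arrays farthest in Scg2 and 0.67 without the 5 arrays rich in Oxt or pituitary markers. Here and in the correlations below, arrays were left out after the group means of all 38 arrays were subtracted. The pull of those arrays on the group means thus remains in the values without them. Chga and Chgb had r = 0.47 and rho = 0.41, with adjusted p of 0.275 and 0.366, and the sign differed between experiments at -0.51 in A, 0.58 in B and 0.74 in C. Cpe and Resp18 had the lowest r, -0.43, with an adjusted p of 0.275.

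**Figure D4:**
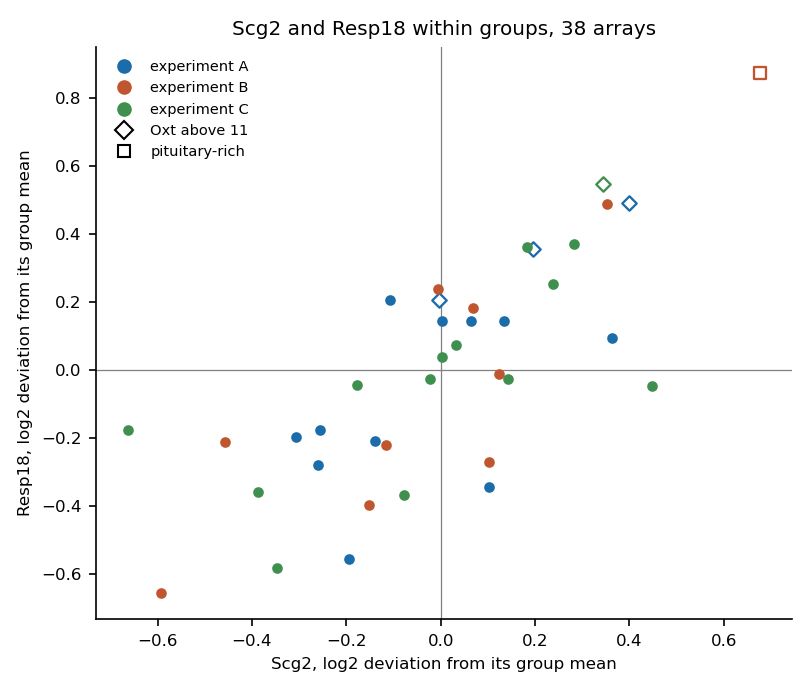
Deviation of Resp18 (vertical axis) from its group mean against that of Scg2 (horizontal axis), log2 scale, for the 38 arrays in groups of more than 1. Points rise together in all 3 experiments (r = 0.76), with the pituitary-rich array at the upper right and 3 of the 4 Oxt-rich arrays above 0 on both axes; the other lies at 0 for Scg2.

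All 9 members were also set against 4 marker levels, in 36 relations over the same 38 arrays. Resp18 went with the mean of Oxt and Avp at r = 0.56 and rho = 0.53, with adjusted permutation p of 0.0747 and 0.111, and Scg2 at r = 0.46 and rho = 0.46, with adjusted p of 0.0818 and 0.111. Resp18 went against the cortical excitatory neuron markers at rho = -0.67 with an adjusted p of 0.00612, while r was -0.55 with an adjusted p of 0.109. Within experiments that r was -0.55 in A, -0.39 in B and -0.79 in C, and it was -0.60 without the 2 arrays farthest in the marker level. Cpe went the other way with these markers, at r = 0.54 and rho = 0.47, with adjusted p of 0.0747 and 0.111. Chgb and the pituitary markers had r = 0.54 and rho = 0.08, and without the 2 farthest arrays r was 0.24, so that this r rests on those arrays.

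For each member, the other gene whose level followed it most closely within groups was taken by Pearson's r over the 38 arrays, as a description. Amigo2, an adhesion molecule gene, was the nearest both to Scg2, at r = 0.76, and to Resp18, at r = 0.81, and these were 0.71 and 0.75 without the 5 rich arrays. The nearest were Pknox2 for Scg3 at 0.77, Mrpl57 for Scg5 at 0.72, Metap1 for Chga at 0.74, Dusp22 for Vgf at 0.68, Yaf2 for Pcsk2 at 0.75 and Nfib for Cpe at 0.71. For Chgb it was 6430548M08Rikl, at 0.77. Each is the highest among all other named genes tested on the same arrays, so a high r arises in part from the choice.

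Other genes of the same pathway were read from 3 lists. Of 14 other processing enzymes and inhibitors 12 were tested, and none was called by adjusted p at any dose. By unadjusted p the count was 0 of 12 at 50 mg/kg, against the 8% given above. Those with the smallest p over doses included Qpct, which caps peptides with pyroglutamate, at a log2 change of 0.67 ± 0.34 at 50 mg/kg, and Cpd, a carboxypeptidase related to Cpe, at -0.52 ± 0.28, with adjusted p of 0.647 and 0.675. The lysosomal protease genes Ctsl and Ctsb were at 0.07 ± 0.15 and 0.13 ± 0.08.

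Of 16 genes of the dense-core vesicle membrane and its release 14 were tested, and none was called by adjusted p at any dose. At 30 mg/kg, where Scg3 was highest against vehicle, 3 of the 14 had an unadjusted p under 0.05, against 9.27% of all probe sets, and their median log2 change was 0.09. Cadps, which primes dense-core vesicles for release, was at 0.26 ± 0.12 and Ica1, an islet cell autoantigen gene, at 0.36 ± 0.14, with adjusted p of 0.516 and 0.435. At 50 mg/kg 5 of the 14 were higher and 9 lower, and 1 had an unadjusted p under 0.05, against 8% of all probe sets. Atp6ap1, a subunit of the vesicle proton pump, was at 0.17 ± 0.06 at that dose, with an adjusted p of 0.435. Cyb561, the vesicle cytochrome, was at 0.31 ± 0.13 at 0.5 mg/kg with an adjusted p of 0.607.

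Of 25 precursors of the peptides that these enzymes process 18 were tested, and 1 rose at 50 mg/kg in the fit of all 39 arrays. That was Pmch, the melanin-concentrating hormone gene of the lateral hypothalamus, with a log2 change of 2.23 ± 0.39 and an adjusted p of 0.0157. By unadjusted p the count at 50 mg/kg was 7 of 18 precursors, against 8% of all probe sets, with a median log2 change of 0.30. Pnoc, the nociceptin precursor, was at 0.88 ± 0.20 at 30 mg/kg with an adjusted p of 0.11. Cartpt, the precursor of CART peptides, was at -1.25 ± 0.33 at 0.5 mg/kg with an adjusted p of 0.376. By unadjusted p the count was 3 of 18 precursors at 30 mg/kg, against 9.27% of all probe sets, and 4 of 18 at 0.5 mg/kg, against 7.63%. At each of these doses 9 precursors were higher and 9 lower. The Pmch change was 1.21 with the Oxt and Avp covariate and 0.85 without the 4 Oxt-rich arrays, with adjusted p of 0.485 and 1, so the call was lost in both. It was also lost with no filter on dim probe sets (adjusted p of 0.0541), without experiment B (0.0602) and without each of vehicle animals 2 and 3 and 50 mg/kg animals 3 and 4 of experiment A (0.0619, 0.0862, 0.273 and 0.252), while its direction held.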

How the data were processed

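The deposited table holds linear signal intensity per probe set of the Affymetrix rat array, 46 arrays and 15923 probe sets. Per the labels' protocols, total RNA was extracted by a Qiagen kit and 15 ug was labelled by an Enzo procedure. The sources used here do not say how the authors summarized probes, and the deposited intensity was taken as it stands. The 7 arrays whose median log2 correlation with other columns lay under 0.5 (-0.00418 to -1.19e-05, against at least 0.9424 for the rest) were left out, so 39 of the planned arrays entered.

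Each array was scaled to a shared median. Values under the 5th percentile were set to it (10.89), and log2 values were then quantile normalized. After 57 controls and probe sets with a mean under the 30th percentile were dropped, 11106 were tested with limma 3.58.1 in R 4.3.3 (trended prior, two-sided, Benjamini-Hochberg, threshold 0.05). One fit had experiment and dose as terms, and another a mean for each experiment and dose. The limma test was tested on simulated data. By the platform's annotation, 12783 probe sets have 1 symbol, 312 have several and 2771 have none. Correlations used numpy 2.4.6 and scipy 1.17.1 with 100000 permutations within groups, and figures matplotlib 3.10.9 under python 3.11.15. For vehicle animals of experiment B, 1 line of the description names 1 mg/kg and the title was followed instead. In experiment C, 3 arrays bear the label of a repeat.

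The members and gene lists were chosen with earlier results of these data known. Named genes are all member probe sets, the 1 nearest other symbol by correlation for each, up to 4 genes of each pathway list by the smallest p over doses with any gene that passed at a dose, and Oxt and Avp beside 50 mg/kg. Markers used were those of hypothalamus, pituitary, striatum, cortical excitatory neurons and astrocytes. Those of general neurons, oligodendrocytes, microglia, endothelium, choroid plexus and blood were summed too. Alternatives covered normalization, filters, floor, prior, array weights, a replicate block, each array left out, experiments, repeat arrays and 3 covariates.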

Additional observations from a re-analysis of the deposited data

Results flagged for a closer look

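In 1 mg/kg animals of experiment C, Chga had a log2 level of 9.1 in animal 3, against 10.00, 9.88 and 9.85 in the other 3. The gap to its nearest neighbour, divided by the range of the group, was 0.831, just over Dixon's critical value for 4 samples. Of 36 sets of values tested (9 members in each group of 4 or 5 animals) this was the 1 past that value, and chance marks about 1 in 20 such groups. Animal 3 was also the lowest of its group for Scg3 (11.29), Chgb (10.99) and Cpe (13.30), and the highest for Vgf (10.69) and Resp18 (10.83). Its centred marker levels were the highest of the group for striatum (1.29) and choroid plexus (1.35), and the lowest for cortical excitatory neurons (-0.45). The part of these markers in its Chga value was not tested.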

How the results depend on the processing

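Over 19 settings and 39 fits that each leave out 1 array, 99 member changes and tests gave 5337 further values, of which 4 passed: Scg2 at 50 mg/kg and over doses within experiment A, Pcsk2 at 50 mg/kg without experiment C, and Pcsk2 across vehicle groups with array weights. Within experiment C the slope of Cpe turned to 0.001639, in an uncalled value. A further 216 uncalled values whose interval held 0 changed sign. The count of probe sets called at 50 mg/kg was 2, and was 1 with median scaling, a stricter filter, the striatum covariate or without the 4 Oxt-rich arrays (an alternative chosen after seeing the data), 0 with no filter, the Oxt and Avp covariate or without experiment B, 13 with array weights, 95 within experiment A and 66 without experiment C. Same-numbered animals did not deviate together more than others did. The 43 same-numbered pairs had correlations of -0.394 to 0.299 (median 0.00352), 9 of them over 0.1. The 135 pairs with different numbers had -0.38 to 0.375 (median 0.00293), 31 of them over 0.1. The replicate block gave a count of 4 at 50 mg/kg and left the counts at the other doses at 0. At 30 mg/kg the count was 0, and 11 with no filter, 27 with array weights, 1 without experiment A and 6 without C. At 0.5 mg/kg it was 0, and 2 with no filter. Over any dose it was 0, and 5 with array weights, 39 within experiment A and 19 without C. For the trend it was 0, and 3 with array weights, 8 within A, 1 without A, 1 without B, 100 without C and 1 with the beta-actin covariate. Across vehicle groups it was 861, and 535 without the repeat arrays and 192 without the 4 Oxt-rich arrays. Leaving out 1 array gave 0 to 4 at 50 mg/kg, 0 to 5 at 0.5 mg/kg, 0 to 4 at 30 mg/kg, 0 to 1 over any dose, 0 to 2 for the trend, 0 to 2 for the 10 mg/kg difference and 290 to 1138 across vehicle groups. The causes were not tested. At 1, 5 and 10 mg/kg the count stayed at 0. With 3 animals at the highest dose, 2 of them rich in Oxt, the fit without those leaves 1 animal, assumed to vary like the other groups. The table gives no detection calls, so the signal over background of each member is unknown.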
